A study of Mus musculus with 96 samples.

Results

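The replication fork and nucleotide synthesis genes are a set of 38 genes, taken by symbol from the 40202 genes counted in each library, and all 38 were present. They were read in C10 cells, a mouse lung line labelled as alveolar type II epithelial, with 1 cell in each of 96 libraries. The control group is 48 untreated cells, and the other group is 48 cells of the same line treated for 36 h with RO-3306, a small molecule made to inhibit the mitotic kinase CDK1. The label gives its dose as 10 nM, which is below the doses commonly used and could not be checked here. Both groups were grown in the same serum-containing medium, sorted singly and turned into cDNA with SMART-seq v4 as part of nanoSPLITS, which splits the lysate of a cell between RNA and protein assays. Protein values were not analysed here, and the labels give neither an activity of CDK1 nor the number of cultures behind the cells.

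At a replication fork the helicase built from CDC45, MCM and GINS unwinds the DNA, RPA coats the single strands, and polymerases alpha, delta and epsilon copy them while the RFC loader places the sliding clamp PCNA. Deoxynucleotides come from ribonucleotide reductase and from the thymidylate enzymes, and new histones are laid down behind the fork by CAF-1. Transcripts of many of these genes are known to be made mainly from late G1 into S phase, under E2F factors.

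Cells of 50000 counts and 1000 genes or more were kept, which left 29 of 48 control and 37 of 48 RO-3306 cells. Kept totals ran from 59979 to 6457215 counts in control and from 295005 to 5321880 in RO-3306. Each cell's title has a letter, A, B, C or D, whose meaning is not given, and the kept cells fell 10, 8, 6 and 5 over the letters in control and 10, 10, 11 and 6 in RO-3306. Because no culture is named, each treatment counts as 1 sample and no difference here has a replicate check or a p-value. Intervals are exact 95% limits and cover counting error only. Control D10 had the fewest counts of the kept cells, RO-3306 C11 the fewest genes of its group and RO-3306 B3 a mitochondrial share of 56.0%, so values of members that move by over 1.5 times, or calls that change, without these 3 cells are also given without them. Markers of the labelled cell type were mostly absent or low. Of 8 alveolar type II genes, the surfactant genes Sftpa1, Sftpc and Sftpd had no count in any kept cell, which allows a share of cells of up to 10.3% in control and 8.11% in RO-3306. Sftpb had counts in 1 cell and Slc34a2 in none. Abca3, at 9.38 and 5.21 CPM, had counts in 7 control and 12 RO-3306 cells, and Lamp3, at 0.227 and 0.108 CPM, in 8 and 7. Lpcat1, at 13.5 and 18.7 CPM, had counts in 7 and 17. An alveolar type I list had a median of 964 CPM per control cell and 544 CPM per RO-3306 cell, led by Cav1, which other cell types also express. Of that list Ager and Aqp5 had no count and Hopx was at 0.0795 and 0.0520 CPM. Rtkn2 was at 7.81 and 7.98 CPM, and Pdpn at 50.9 and 37.8 CPM. All 6 mesenchymal genes of a marker list were found, among them Vim in every kept cell, and all 6 were lower in RO-3306. At full depth their summed level per kept cell ran from 1329 to 11354 CPM in control (median 4617) and from 1263 to 13886 CPM in RO-3306 (median 2323), and its part in the results below was not tested. Summed lists of epithelial, macrophage and endothelial markers had a median of 0 CPM per cell in both groups.

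Levels are sums of counts over a group's kept cells relative to a group total scaled to 1000000 (CPM). The ratio is log2 of RO-3306 over control after adding 1 CPM to each, so ratios of low genes come out too small. Lowest, median and highest values of members per cell, by contrast, are at equal depth, with each cell thinned to 639000 counts, which 25 control and 34 RO-3306 cells had. Of the 38 genes, 37 reached 5 CPM on average over the groups and were compared with all 9374 genes that did. The exception was Ung, the uracil DNA glycosylase, whose mean lay just under that, at 5.33 CPM in control (4.79 to 5.92) and 4.65 CPM in RO-3306 (4.23 to 5.11), from 6 cells of each group.

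As a set, the fork and nucleotide genes were slightly lower in RO-3306. Their median ratio was -0.38 (quartiles -0.86 and -0.06) beside -0.22 (-0.98 and 0.43) for all genes tested. There were 28 lower and 9 higher genes, and with TMM scaling, which moves the median of all genes to -0.06, the split was 23 to 14. Their summed level was 5382 CPM in control against 4700 CPM in RO-3306. On the log2 scale that is -0.20, but -0.035 after TMM scaling and -0.00496 when letter B was left out.

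Few members passed the size used for a call, which was a 2-fold difference in the summed level with the same sign in all 4 letters. Lower by 2-fold were 7 of 37 (18.9%), against 24.2% of all genes. These were Rfc1, Pola2, Pole, Gins3, Timeless, Rrm1 and Chaf1a. Higher by 2-fold were Rfc4 and Clspn, 5.41% against 12.2% of all genes. With the letters required, 2 genes were called lower, Rfc1 and Chaf1a (5.41% against 6.43%), and 0 were called higher against 7.23% of all genes. The shares past 2-fold and the shares called were thus at or below those of all genes.

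Ratios below 0 in every letter were more frequent than among all genes, and ratios above 0 in every letter were less frequent. Below 0 in every letter, whatever the size, were 9 of 37 genes (24.3%), against 10.3% of all genes. They were Rfc1, Prim2, Pold2, Fen1, Tk1, Tyms, Dut, Slbp and Chaf1a, which span the clamp loader, primase, polymerase delta, the flap nuclease, thymidylate synthesis and histone supply. Above 0 in every letter was only Chaf1b, or 2.7% against 13.1% of all genes. With TMM scaling the lower count was 6, without Rfc1, Tk1 and Slbp, beside 7.56% of all genes. The letters did not move together. The members' median was -0.49 in letter A, -1.12 in B, 0.67 in C and -0.06 in D, and that of all genes was -0.08, -0.26, 0.41 and 0.24.

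**Figure D1:**
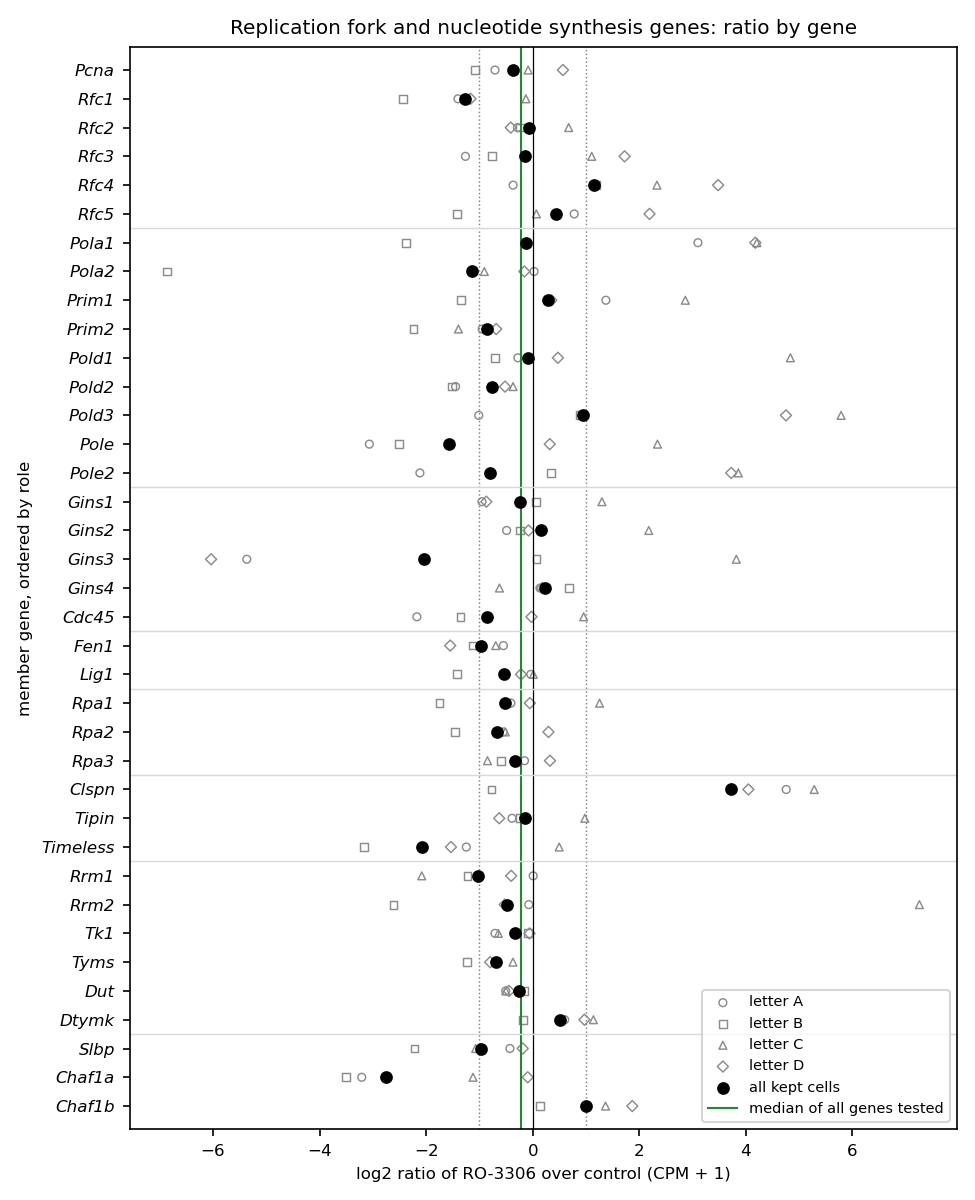
Log2 ratio of RO-3306 over control for the 37 genes tested, ordered by role. Black points are sums over all kept cells, open symbols the 4 title letters, the green line the median of all genes (-0.22) and dotted lines a 2-fold difference. Most black points lie between the dotted lines, and the open symbols of many genes lie on both sides of 0.

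Pcna encodes the sliding clamp. Per cell it ran from 0 to 581 CPM in control (median 302) and from 0 to 1110 CPM in RO-3306 (median 189), or to 516 CPM without RO-3306 C11. The groups overlapped over most of their range, and the summed levels were 281 CPM (277 to 285) and 216 CPM (213 to 219), a log2 ratio of -0.38 that was above 0 in letter D.

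The 5 subunits of the clamp loader moved in different directions. Rfc1, the large subunit, was lower in RO-3306 and Rfc4, a small subunit, was higher, while Rfc2, Rfc3 and Rfc5 differed by less than 2-fold. The promoters of the opposed pair, and that of Rfc3, are shown so that their letters can be set side by side. They are the 250 bases before the RefSeq start on GRCm38.p6 (Rfc1 chr5:65335640-65335889, minus strand; Rfc4 chr16:23127731-23127980, minus strand; Rfc3 chr5:151651209-151651458, minus strand). Capitals mark matches on either strand to the E2F motif TTTNNCGC or to CCAAT.
Rfc1: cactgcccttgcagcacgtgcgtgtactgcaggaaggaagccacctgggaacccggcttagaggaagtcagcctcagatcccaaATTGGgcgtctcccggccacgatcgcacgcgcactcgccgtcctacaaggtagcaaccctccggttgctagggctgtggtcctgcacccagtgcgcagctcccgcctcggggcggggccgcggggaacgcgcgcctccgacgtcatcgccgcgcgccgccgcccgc
Rfc4: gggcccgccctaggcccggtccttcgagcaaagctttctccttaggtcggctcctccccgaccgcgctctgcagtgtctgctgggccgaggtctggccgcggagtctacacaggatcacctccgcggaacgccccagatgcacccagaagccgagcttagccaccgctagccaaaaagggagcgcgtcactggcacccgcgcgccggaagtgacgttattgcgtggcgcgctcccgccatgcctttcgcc
Rfc3: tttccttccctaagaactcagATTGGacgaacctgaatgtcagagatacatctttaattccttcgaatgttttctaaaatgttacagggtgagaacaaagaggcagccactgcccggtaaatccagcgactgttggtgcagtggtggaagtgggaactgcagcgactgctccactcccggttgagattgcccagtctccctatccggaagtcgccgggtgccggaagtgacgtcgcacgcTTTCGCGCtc
The stretch of Rfc3 ends with an E2F match 10 bases before the start and has a CCAAT match 229 bases before it. That of Rfc1 has a CCAAT match 166 bases before the start, and neither pattern occurs in that of Rfc4.

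Rfc1 (chromosome 5, 65419195 to 65495960 on GRCm39, minus strand) ran from 0 to 554 CPM per control cell (median 31.3) and from 0 to 194 CPM per RO-3306 cell (median 0). The highest control cells were B10, B12 and B2, all of letter B, and many cells of both groups were at or near 0. In sum it stood at 97.6 CPM (95.3 to 100.04) and 39.8 CPM (38.5 to 41.1), a fold of 0.408 (0.392 to 0.425) and a log2 ratio of -1.27. By letter it was -1.40, -2.43, -0.13 and -1.17. Rfc1 was called lower in 13 of 17 alternative analyses but not with TMM scaling (-1.12), with cells weighted equally (-1.48), without letter B (-0.29) or relative to genes of like mRNA length (-0.71). At equal depth 18 of 25 control and 16 of 34 RO-3306 cells had an Rfc1 count. That difference of -24.9 percentage points was matched or exceeded in the same direction by 0.853% of all genes tested.

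Rfc4 (chromosome 16, 22932698 to 22946480 on GRCm39, minus strand) ran from 0 to 615 CPM per control cell (median 0) and from 0 to 1880 CPM per RO-3306 cell (median 207), or to 664 CPM without RO-3306 C11. Most control cells had none and nearly all RO-3306 cells had some. Summed over cells it was at 110 CPM (108 to 113) and 246 CPM (243 to 249), a fold of 2.24 (2.18 to 2.30) and a log2 ratio of 1.15. By letter it was -0.37, 1.18, 2.33 and 3.48, so letter A kept it from being called. At equal depth 12 of 25 control and 33 of 34 RO-3306 cells showed a count, 49.1 points more, and 1.91% of all genes had as large a gain. In letter A these were 6 of 9 and 8 of 8 cells, in B 4 of 8 and 8 of 9, in C 1 of 5 and 11 of 11, and in D 1 of 3 and 6 of 6. The share of cells with Rfc4 was higher in RO-3306 in each letter, and the level over all cells in 3 of them. Across all genes tested, 72.0% were found in a larger share of RO-3306 cells, by a median of 8.94 points.

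The other small subunits differed little in sum, but with letters of both signs. Rfc2 was at 185 CPM (182 to 188) in control against 177 CPM (174 to 180) in RO-3306, with a ratio of -0.06 (0.10 with TMM scaling). Rfc3 was at 162 CPM (159 to 165) and 147 CPM (145 to 150), with a ratio of -0.14 (0.02 with TMM scaling). Rfc5 was at 94.9 CPM (92.6 to 97.3) and 129 CPM (127 to 132), with a ratio of 0.44. Each of the 3 was lower in RO-3306 in letter B and higher in letter C. By letter Rfc3 was at -1.26, -0.77, 1.11 and 1.72, and Rfc5 at 0.78, -1.42, 0.07 and 2.19. Rfc5 had a count in 15 of 25 control and 32 of 34 RO-3306 cells at equal depth. That gain of 34.1 points was matched or exceeded by 9.02% of all genes. All 4 small subunits were found together in 7 of 25 cells in control, or 28% (12.1% to 49.4%), and in 27 of 34 in RO-3306, or 79.4% (62.1% to 91.3%), at equal depth. With Rfc1 included the shares were 28% (12.1% to 49.4%) and 41.2% (24.6% to 59.3%). Taken singly, Rfc2 gained 21.1 points and Rfc3 17.3, which 25.5% and 31.9% of all genes matched or exceeded. Joint counts rise with such gains, and 72.0% of all genes were found in a larger share of RO-3306 cells. Cells with Rfc1 but no Rfc4 numbered 8 of 25 in control and 0 of 34 in RO-3306, which allows a share of up to 8.82%. Since 33 of 34 RO-3306 cells had Rfc4, that 0 follows largely from its detection and says little of the pair. Per kilobase of mRNA, with reads of introns included, Rfc4 had the highest level of the 5 subunits in both groups (86.1 CPM per kb in control and 193 in RO-3306) and Rfc1 the lowest (20.6 and 8.38).

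Genes of the polymerases were low, and their sums often rested on few cells. Of the 9, 7 were lower and 2 higher, with a median ratio of -0.77, and with TMM scaling 5 were lower and 4 higher. Pola2, which encodes the B subunit of polymerase alpha, ran from 0 to 764 CPM per control cell (median 7.82) and from 0 to 264 CPM per RO-3306 cell (median 0). The summed levels were 74.7 CPM (72.6 to 76.8) and 33.2 CPM (32.02 to 34.4), a ratio of -1.15. By letter it was 0.02, -6.86, -0.91 and -0.16, so the sum was carried by letter B, where RO-3306 cells had 0 CPM, and without letter B it was -0.14.

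The primase subunits went different ways. Prim1, the catalytic subunit, was at 102 CPM (99.7 to 105) in control against 125 CPM (123 to 128) in RO-3306, a ratio of 0.29 that was below 0 in letter B. Prim2, the large subunit, was at 68.9 CPM (66.9 to 70.9) and 37.6 CPM (36.4 to 38.9), and its ratio of -0.86 was below 0 in all 4 letters (-0.95, -2.24, -1.39 and -0.69). Prim2 kept that sign in every letter used in each of 17 alternatives. Per cell Prim2 was still spread over the whole range in both groups, from 0 to 327 CPM (median 1.56) and from 0 to 285 CPM (median 0).

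Pold2, an accessory subunit of polymerase delta, was at 87.8 CPM (85.6 to 90.1) in control against 51.0 CPM (49.5 to 52.4) in RO-3306, a ratio of -0.77 that was below 0 in every letter. Of its gene span, 51.9% is shared with Aebp1 and LOC118567891, and reads over that stretch would be left out or could not be assigned by strand, so its value is uncertain. It was found in 15 of 29 control and 28 of 37 RO-3306 cells, so its sum was lower although more cells had it. The other 5 polymerase genes, Pola1, Pold1, Pold3, Pole and Pole2, had 13.97 to 33.8 CPM in control against 6.94 to 33.03 CPM in RO-3306, with ratios from -1.57 for Pole, the catalytic subunit of polymerase epsilon, to 0.95 for Pold3, an accessory subunit of polymerase delta. None of the 5 kept 1 sign over the letters. In Pola1, the catalytic subunit of polymerase alpha, 96.7% of control counts came from 1 cell, control B4. All 4 genes of the polymerase alpha and primase complex were found together in 1 of 25 control and 4 of 34 RO-3306 cells at equal depth.

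CDC45 and the 4 GINS proteins complete the MCM helicase. Gins1 was at 84.1 CPM (81.9 to 86.3) in control against 70.9 CPM (69.2 to 72.6) in RO-3306, Gins2 at 79.4 CPM (77.3 to 81.6) and 88.7 CPM (86.8 to 90.6), and Gins4 at 101 CPM (98.3 to 103) and 119 CPM (117 to 121). Their ratios of -0.24, 0.16 and 0.24 all differed in sign between letters. Cdc45, at 71.7 CPM (69.7 to 73.8) and 39.3 CPM (38.01 to 40.6), had a ratio of -0.85 and was lower in letters A, B and D and higher in C.

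Gins3 stood apart from the other GINS genes and is named after its values were seen. It was at 54.7 CPM (53.0 to 56.6) in control against 12.6 CPM (11.9 to 13.3) in RO-3306, a ratio of -2.04, but 51.8% of the control counts came from 1 cell, control D7, and by letter the ratio was -5.37, 0.07, 3.82 and -6.04. At equal depth it was found in 7 of 25 control and 8 of 34 RO-3306 cells. Per kilobase of mRNA, Gins1 and Gins4 were at 77.3 and 74.7 CPM per kb in control and 65.2 and 88.1 in RO-3306, while Gins2 and Gins3 were at 20.4 and 21.7 in control and 22.7 and 4.999 in RO-3306. The Gins3 promoter is shown because it holds matches to both patterns close to the start (chr8:95633309-95633558, plus strand, GRCm38.p6, E2F and CCAAT matches in capitals).
Gins3: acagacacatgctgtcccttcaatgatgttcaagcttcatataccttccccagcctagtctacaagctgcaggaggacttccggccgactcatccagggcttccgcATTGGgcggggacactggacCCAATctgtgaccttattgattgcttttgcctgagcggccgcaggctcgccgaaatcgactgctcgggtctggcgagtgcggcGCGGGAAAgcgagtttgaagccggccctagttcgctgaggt
Its E2F match begins 41 bases before the start, and its CCAAT matches begin 144 and 124 bases before it.

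Fen1, the nuclease that trims the flaps of Okazaki fragments, was lower in RO-3306 in every letter. Per cell it ran from 0 to 399 CPM in control (median 105) and from 0 to 252 CPM in RO-3306 (median 32.1, or 48.5 without RO-3306 C11). The groups overlapped, and the highest RO-3306 cell lay below the highest control cell. In sum it stood at 149 CPM (147 to 152) and 75.4 CPM (73.7 to 77.2), a fold of 0.505 (0.489 to 0.520) and a log2 ratio of -0.98, just short of 2-fold. By letter it was -0.55, -1.12, -0.69 and -1.55, and over the 17 alternatives it ran from -1.11 to -0.82, with the same sign in every letter used. Lig1, the ligase that seals the fragments, was at 38.6 CPM in control against 26.3 CPM in RO-3306, with a ratio of -0.54 and values near 0 in letters A and C.

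The 3 subunits of RPA, which covers single-stranded DNA, were all lower in sum, and none in every letter. Rpa1 was at 141 CPM (139 to 144) in control against 98.3 CPM (96.3 to 100.4) in RO-3306, Rpa2 at 269 CPM (265 to 273) and 170 CPM (167 to 172), and Rpa3 at 198 CPM (194 to 201) and 156 CPM (154 to 159). The ratios were -0.52, -0.66 and -0.34, and they were above 0 in letter C for Rpa1 and in letter D for Rpa2 and Rpa3. All 3 subunits were found together in 13 of 25 cells in control, or 52% (31.3% to 72.2%), and in 28 of 34 in RO-3306, or 82.4% (65.5% to 93.2%), at equal depth. Such gains were frequent, since 72.0% of all genes were found in a larger share of RO-3306 cells. Singly, Rpa1 gained 12.2 points and Rpa2 21.1, as much as or less than 42.7% and 25.5% of all genes, and Rpa3 changed by -0.82.

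Of the fork protection genes, Tipin differed least in sum. It was at 204 CPM (201 to 208) in control against 185 CPM (183 to 188) in RO-3306, a ratio of -0.14 (0.02 with TMM scaling). When each cell was given the same weight the ratio became -2.49. In control D10, which had 59979 counts in all, Tipin alone stood at 21908 CPM. Timeless and Clspn are named after their values were seen. Timeless, the partner of Tipin, was at 35.1 CPM (33.7 to 36.6) and 7.53 CPM (6.98 to 8.11), a ratio of -2.08 that was above 0 in letter C, where both groups were under 2 CPM. Clspn, the checkpoint adaptor claspin, had a count in 3 of 29 control and 8 of 37 RO-3306 cells, with 0.734 CPM (0.536 to 0.964) and 21.8 CPM (20.9 to 22.8). Its ratio of 3.72 rested on few cells, since 57.3% of the RO-3306 counts came from RO-3306 C5, and it was below 0 in letter B.

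Dut and Dtymk were the only members found in every kept cell. Dut, the dUTPase that keeps uracil out of DNA, ran from 152 to 1621 CPM per control cell (median 523) and from 81.4 to 1330 CPM per RO-3306 cell (median 412). Summed over cells it was at 601 CPM (595 to 607) and 504 CPM (500 to 509), and the ratio of -0.25 was below 0 in every letter but close to the median of all genes. Dtymk, the thymidylate kinase, ran from 224 to 1178 CPM per control cell (median 523) and from 272 to 1715 CPM per RO-3306 cell (median 788). Its summed levels were 592 CPM (586 to 597) and 841 CPM (835 to 847), a ratio of 0.51, and it was higher in letters A, C and D and lower in B (-0.19). Per kilobase of mRNA, Dtymk was the highest member in both groups, at 561 and 797 CPM per kb.

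The synthase and the kinase that make thymidine monophosphate were both lower in every letter. Tyms, the thymidylate synthase, ran from 0 to 1205 CPM per control cell (median 228) and from 0 to 689 CPM per RO-3306 cell (median 125). Its summed levels were 277 CPM (273 to 281) and 170 CPM (168 to 173), a fold of 0.616 (0.603 to 0.629) and a log2 ratio of -0.70 (letters -0.71, -1.24, -0.37 and -0.80). Tk1, the cytosolic thymidine kinase, was at 307 CPM (303 to 311) and 243 CPM (240 to 246), a ratio of -0.34 that came as close to 0 as -0.06 in letter D. The 4 thymidylate genes were found together in 21 of 25 control and 27 of 34 RO-3306 cells at equal depth.

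Ribonucleotide reductase makes deoxynucleotides from ribonucleotides, with Rrm1 as the large and Rrm2 as the small subunit. Rrm1 ran from 0 to 926 CPM per control cell (median 141) and from 0 to 736 CPM per RO-3306 cell (median 54.0). The summed levels were 254 CPM (251 to 258) and 125 CPM (123 to 127), a fold of 0.491 (0.480 to 0.503) and a log2 ratio of -1.02. It was not called, because letter A had equal levels (0.01) beside -1.22, -2.08 and -0.40 in the others. Rrm2 was at 142 CPM (139 to 145) and 102 CPM (99.5 to 104), a ratio of -0.48. In letter C the control cells had no Rrm2 count, and without that letter the gene was 2-fold lower and below 0 in the remaining letters. Both subunits were found together in 12 of 25 control and 21 of 34 RO-3306 cells, where 72.0% of all genes were found in a larger share of cells.

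Slbp encodes the protein that binds the stem-loop of replication-dependent histone mRNAs. Per cell it ran from 0 to 847 CPM in control (median 192) and from 0 to 930 CPM in RO-3306 (median 116), or to 632 CPM without RO-3306 C11. In sum it stood at 275 CPM (271 to 279) and 140 CPM (137 to 142), a fold of 0.509 (0.498 to 0.521) and a log2 ratio of -0.97, just short of 2-fold. By letter it was -0.43, -2.22, -1.07 and -0.19, and without control D10, RO-3306 C11 and RO-3306 B3 it was called lower.

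The 2 CAF-1 subunits in the set went opposite ways. CAF-1 places new histones on DNA behind the fork, and its other subunit, Rbbp4, is not a member. The promoters of Chaf1a (chr17:56040166-56040415, plus strand) and Chaf1b (chr16:93883651-93883900, plus strand) are shown for that reason, with the same marks and build.
Chaf1a: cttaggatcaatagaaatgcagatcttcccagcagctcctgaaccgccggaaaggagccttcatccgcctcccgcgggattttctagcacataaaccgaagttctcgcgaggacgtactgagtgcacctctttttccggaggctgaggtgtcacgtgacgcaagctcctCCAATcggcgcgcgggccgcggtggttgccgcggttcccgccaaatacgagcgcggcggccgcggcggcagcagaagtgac
Chaf1b: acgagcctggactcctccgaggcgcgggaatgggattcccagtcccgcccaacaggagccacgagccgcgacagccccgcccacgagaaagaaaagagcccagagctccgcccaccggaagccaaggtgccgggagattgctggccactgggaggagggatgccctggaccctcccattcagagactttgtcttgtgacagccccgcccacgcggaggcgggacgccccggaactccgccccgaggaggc
The Chaf1a stretch holds a CCAAT match 81 bases before the start and no exact match to TTTNNCGC, and the Chaf1b stretch holds neither. Only exact matches were marked, so a stretch without one may still hold an E2F site of other letters.

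Chaf1a (chromosome 17, 56347416 to 56375026 on GRCm39, plus strand) ran from 0 to 255 CPM per control cell and from 0 to 40.7 CPM per RO-3306 cell, with a median of 0 in both. It had counts in 12 of 29 and 8 of 37 cells. Summed over cells it was at 24.7 CPM (23.5 to 25.9) and 2.81 CPM (2.48 to 3.17), a fold of 0.114 (0.0994 to 0.130) and a log2 ratio of -2.75. By letter it was -3.21, -3.50, -1.12 and -0.09. In letter D both groups were almost without it, at 0.07 and 0 CPM, so the sign there rests on a few counts, and with thinned cells the call was lost. Chaf1a was called lower in 15 of 17 alternatives.

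Chaf1b (chromosome 16, 93680788 to 93703003 on GRCm39, plus strand) ran from 0 to 351 CPM per control cell (median 3.13) and from 0 to 532 CPM per RO-3306 cell (median 120). It had counts in 14 of 29 and 30 of 37 cells. The summed levels were 96.2 CPM (93.9 to 98.6) and 192 CPM (190 to 195), a fold of 2.00 (1.94 to 2.06). The log2 ratio of 0.99, with 1 CPM added, lay just under the size needed for a call, while Rrm1 at -1.02 lay just past it. By letter Chaf1b was at 1.03, 0.14, 1.37 and 1.87, and it was above 0 in every letter used in each of 17 alternatives and called higher in 9 of them, that without control D10, RO-3306 C11 and RO-3306 B3 included. At equal depth, Chaf1b without Chaf1a was found in 7 of 25 control and 22 of 34 RO-3306 cells, and both in 6 and 7 cells. The share of cells with Chaf1b rose by 33.3 points, and 9.61% of all genes had as large a gain.

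**Figure D2:**
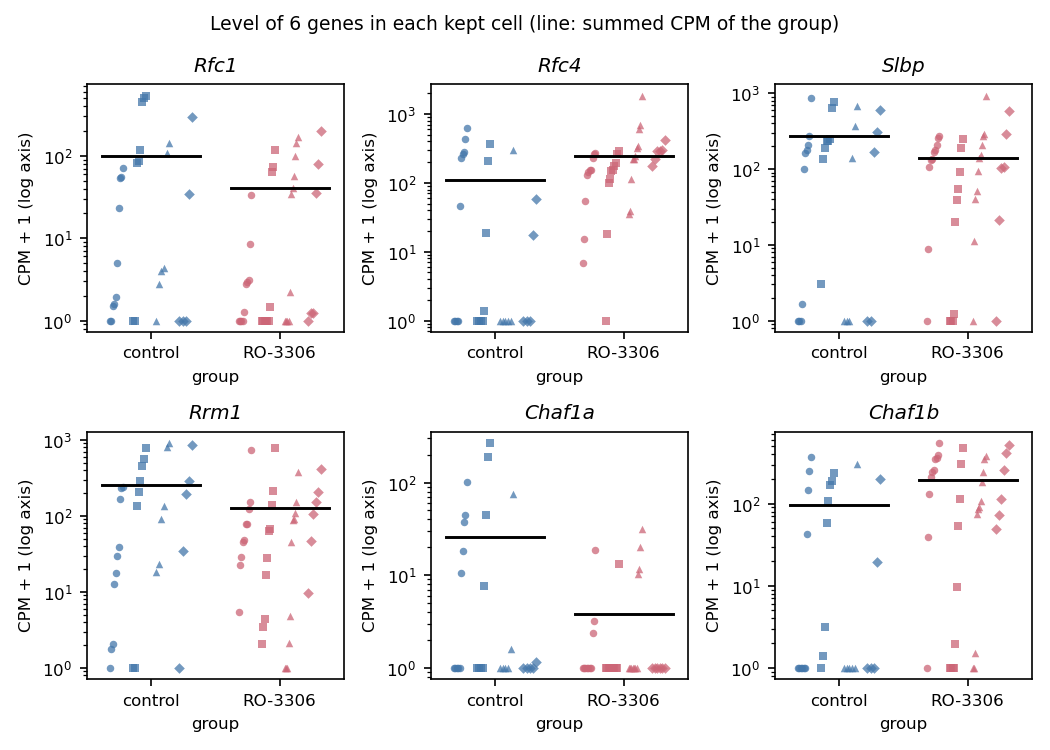
Level of 6 genes in each of 29 control and 37 RO-3306 cells, as CPM + 1 at full depth on a log axis. Symbols are title letters as in the plot of ratios by gene, columns run from A to D, and lines are summed levels. Rfc4 and Chaf1b had fewer cells at 0 in RO-3306, Chaf1a had more, and the 2 groups overlapped in all 6 genes.

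Of the 31 members with a RefSeq promoter window, from 250 bases before to 50 bases after the start on GRCm38.p6, 35 windows were read, since some genes have several starts. The E2F pattern TTTNNCGC was in the windows of 9 genes (Clspn, Gins3, Lig1, Pola1, Pold1, Pold3, Pole2, Rfc3 and Tyms), or 25.7% of windows, against 5.17% of all 32851 windows and 8.84% of those of genes of at least 5 CPM. These 9 include genes that were lower and higher in RO-3306. CCAAT was in 48.6% of the members' windows, against 37.4% of all and 38.1% of those of genes of at least 5 CPM. The CHR pattern TTTGAA, known from G2/M genes, was in 11.4% against 17.9% and 12.5%. The patterns were searched on both strands as exact matches only, and matches of different patterns were allowed to overlap.

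Single cells had more of the 38 genes in RO-3306 but less of them in sum. At equal depth the 25 control cells had from 8 to 36 of the genes (median 23) and the 34 RO-3306 cells from 13 to 32 (median 27). The same cells had a median of 4576 and 5958 genes of any kind, so both numbers were higher in RO-3306. A larger share of RO-3306 cells than of control cells had a count for 25 of the 37 members (67.6%), beside 72.0% of all genes. The summed level was 1828 to 8067 CPM in control (median 5720, quartiles 4541 and 6729) and 2061 to 9833 CPM in RO-3306 (median 4142, quartiles 3421 and 5412). The highest cells were RO-3306 D6 and C11, so the group with the lower median also held the highest cells. By letter the control medians were 5720, 6032, 3562 and 5610 CPM and the RO-3306 medians 4233, 3419, 5674 and 4031 CPM, lower in RO-3306 in letters A, B and D and higher in C. The 5 control cells of letter C had the lowest median number of members, 18.

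**Figure D3:**
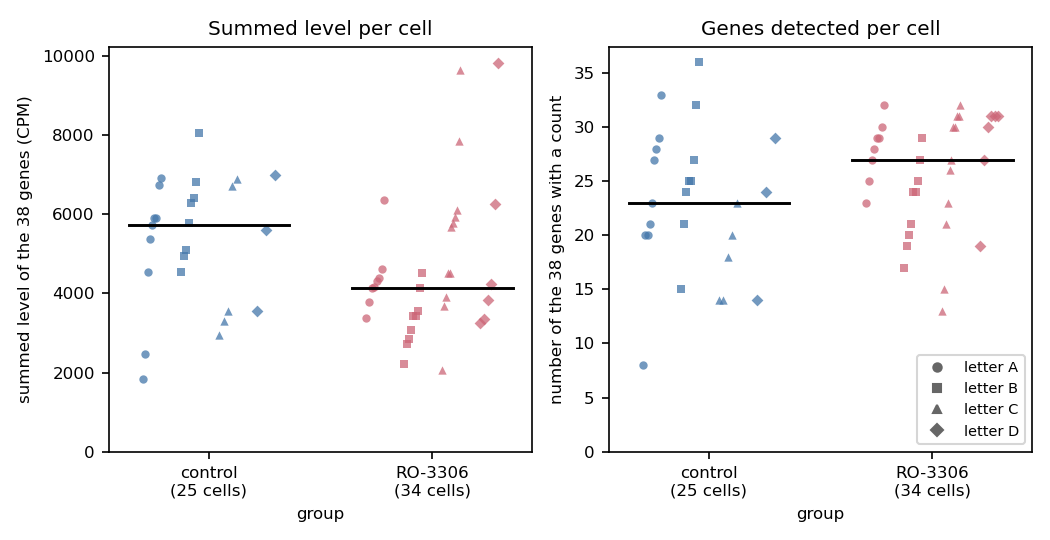
Summed level of the 38 genes in CPM (left) and number of them with a count (right) in each cell at 639000 counts. Points are cells, symbols and columns the title letters from A to D, and lines the group medians of 5720 and 4142 CPM, and of 23 and 27 genes.

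Roles differed in how far the median cell was lower. The median cell had 162.8 CPM of Fen1 and Lig1 together in control and 64.2 CPM in RO-3306, and 602.5 and 411.6 CPM of RPA. For nucleotide supply it was 2124 and 1811 CPM, for polymerases and primase 405.3 and 289.5 CPM, and for the clamp and its loader 936 and 858 CPM. It was 377 and 289 CPM for the helicase partners, 208 and 187 CPM for fork protection, and 300.5 and 284.0 CPM for histone supply and chromatin assembly. All 8 medians were lower in RO-3306. Relative to control the flap nuclease and ligase were lowest of the 8, while in CPM nucleotide supply differed most.

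Across cells of 1 group the members went weakly together. The Spearman correlation of a member with the sum of the other 37 was positive for 30 of 38 genes in control (median 0.15) and 35 of 38 in RO-3306 (median 0.24). Of the 27 members of at least 50 CPM, 24 and 26 were positive, with medians of 0.17 and 0.28. Among 2952 other genes of at least 50 CPM, with a count in at least 50% of the kept cells of both groups, 1487 and 1431 were positive. Their medians were 0.00 and -0.01. Rrm2 (0.37 and 0.56), Rfc3 (0.36 and 0.51), Rpa2 (0.41 and 0.39) and Pcna (0.29 and 0.66) were high in both groups, while Rrm1 was at -0.23 and 0.05 and Rfc1 at 0.12 and -0.08. The 2 subunits of ribonucleotide reductase thus differed in this measure. The cells share their library preparation, and these values are descriptions over 25 and 34 cells.

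**Figure D4:**
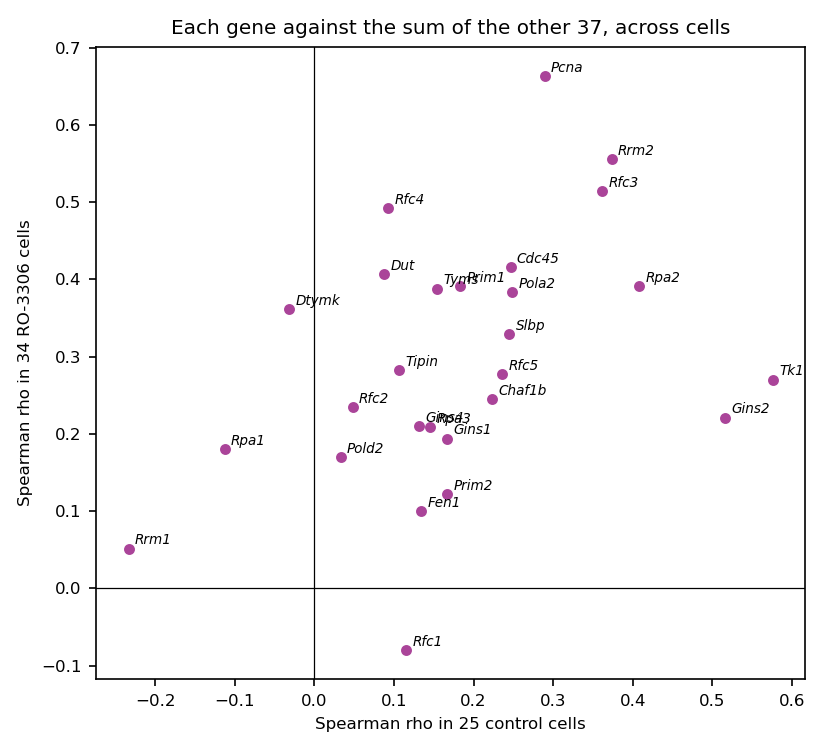
Spearman correlation of each of the 27 members of at least 50 CPM with the sum of the other 37 members, across 25 control cells (horizontal) and 34 RO-3306 cells (vertical). Nearly all points lie to the upper right of 0 on both axes, and Rrm1, Rpa1, Dtymk and Rfc1 lie outside it.

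The genes outside the set most like its summed level, by the smaller of the 2 groups' correlations, were Tcf19 (0.65 in both), Spc25 (0.65 and 0.56), Smc6 (0.55 and 0.47), Hat1 (0.53 and 0.44) and Mrpl18 (0.56 and 0.43). Orc6, Pdlim1, Vps35, Ndufaf2 and Ddx1 followed, with 0.36 to 0.50 in control and 0.37 to 0.41 in RO-3306. The level of these 10 differed little between the groups, with ratios from -0.22 for Ndufaf2 to 0.38 for Vps35. The summed level of the members correlated with that of MCM and licensing genes at 0.35 in control and 0.39 in RO-3306, with that of mitotic genes at 0.18 in both, and with the number of genes found at 0.06 and 0.18. With the mitochondrial share of counts it correlated at 0.25 in control and -0.34 in RO-3306, of opposite sign, and the part of that share in the levels was not tested.

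Lists of related genes set the members in context. Of all genes tested, 6.43% were called lower and 7.23% higher, the shares to set beside the calls in each list. Origin licensing, which loads the MCM helicase before S phase, had the lowest median of the lists, -0.73 over 17 genes, with 5 called lower and 0 higher. The 5 were Mcm2 (139 and 61.4 CPM, ratio -1.16), Mcm4 (202 and 86.8 CPM, -1.21), Mcm6 (232 and 91.2 CPM, -1.34), the loading factor Cdc6 (36.7 and 6.20 CPM, -2.39) and its partner Cdt1 (111 and 31.9 CPM, -1.77). Cdc7, the kinase that fires origins, was at 41.1 and 3.62 CPM (-3.19) but above 0 in letter C. Cdc6 had counts in 10 of 29 and 6 of 37 cells. Of the 17 genes 13 were lower and 4 higher, the highest being Orc4 (65.0 and 116 CPM, 0.83), which was below 0 in letter D. Orc5 (51.6 and 85.1 CPM, 0.71) was above 0 in every letter and is named after its value was seen.

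Other fork and replisome genes had a median of -0.46 over 23 genes, with 1 called lower, Tonsl (43.95 and 12.2 CPM, -1.76), and 0 higher. Tonsl reads newly made histone H4 at forks. Other genes of nucleotide supply had a median of -0.23 over 28 genes and 0 called in either direction. Among those with a mean of at least 20 CPM the largest differences were in Ppat (51.0 and 11.4 CPM, -2.07), which starts purine synthesis, and Ctps (192 and 89.2 CPM, -1.09), a CTP synthase, and both were above 0 in 1 letter. Mthfd1, a folate enzyme with a lower mean of 19.3 CPM, was at 37.6 and 0.959 CPM (-4.30) from 6 and 4 cells, above 0 in letter C, and is named after its value was seen. Going the other way, Ctps2 was at 44.9 and 84.2 CPM (0.89) and above 0 in every letter. Adsl, a purine enzyme, was at 267 and 149 CPM (-0.84) and below 0 in every letter. In this list 2 genes were above 0 in every letter and 1 below, beside 13.1% and 10.3% of all genes.

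The list of E2F and G1/S control genes was split, with a median of -0.61 over 17 genes. Called higher were Cdkn1a, which encodes the CDK inhibitor p21 (78.9 and 287 CPM, 1.85), Ccnd1, cyclin D1 (63.5 and 168 CPM, 1.39), and E2f3 (3.58 and 31.02 CPM, 2.81). Called lower was Cdc25a, the phosphatase that activates CDK2 (26.2 and 0.98 CPM, -3.78). Mitotic genes had a median of -0.06 over 20 genes with 2 called lower, Mki67 (105 and 12.5 CPM, -2.98) and Bub1b (70.2 and 23.1 CPM, -1.56), and 0 higher.

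**Figure D5:**
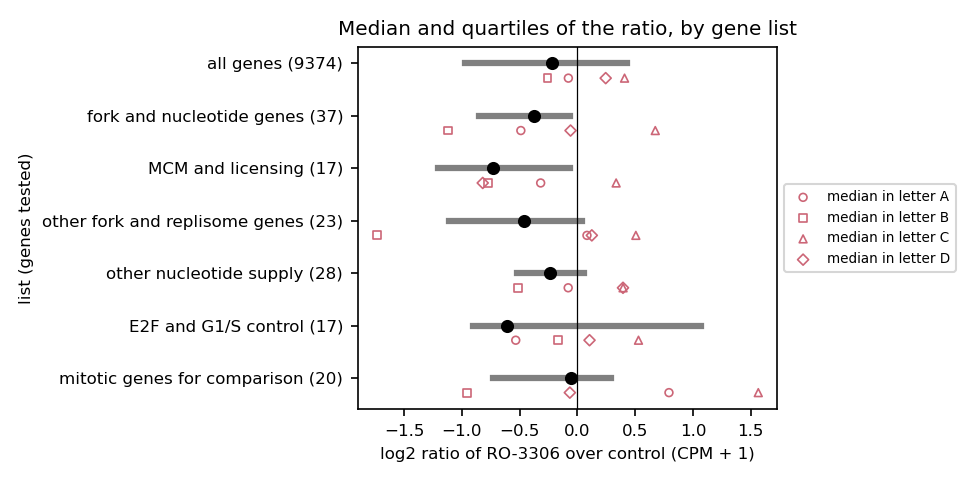
Median (black point) and quartiles (grey bar) of the log2 ratio of RO-3306 over control for all 9374 genes, the 37 fork and nucleotide genes and 5 related lists, with list medians by title letter below each bar. The fork and nucleotide genes (-0.38) lie between all genes (-0.22) and the licensing genes (-0.73), and letter C lies above 0 in every list.

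Transcript length moved with the ratio. Across 9115 genes with an mRNA length, the Spearman correlation of ratio and length was -0.35, and the median ratio ran from 0.25 in the shortest to -0.86 in the longest of 10 length classes. The members had a median of -0.28 after the median of genes of like length was taken off. Licensing genes then had -0.39, other fork and replisome genes -0.12, other nucleotide supply -0.07, the E2F and G1/S list -0.04 and mitotic genes 0.33. The members thus lay below the other fork genes and the E2F list, unlike before that step. Among the members, Chaf1a was at -1.89, Rfc1 at -0.71, Rrm1 at -0.23 and Chaf1b at 1.15. So the size, but not the sign, of these 4 ratios moved with the length step. The sign of other members did change, to above 0 for Rfc2 (0.50), Rfc3 (0.02), Pola1 (0.66), Pold1 (0.26), Rpa1 (0.04) and Ung (0.04). Gins4 went below 0 (-0.02). The part of length in all these ratios was not tested.

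Reads placed at several sites leave fractional counts, over 1e-06 from a whole number. Their share of a gene's nonzero values ran from 3.7% for Timeless to 61.5% for Slbp, and it was also high for Tk1 (56.1%), Pold1 (52.0%) and Dtymk (51.5%), whose levels may hold reads of near-identical copies and are uncertain to that extent.

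The 19 control and 11 RO-3306 libraries that were not kept held few counts of the members, 552.5 and 99. In control, 274 of these were Rpa1 counts of control D6.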

How the data were processed

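Single-cell RNA was measured in 96 libraries, 48 control and 48 RO-3306, each with 1 table. The authors deposited expected counts per gene, made with featureCounts 2.0.3 on GRCm39 and its RefSeq annotation, per the file headers. Reads were counted over whole gene spans and multi-mapped reads were counted as fractions, per the file headers, which name no strand or overlap option. STAR and FastQC are named in the submitters' processing notes, with versions not given in the sources used here. Reads carry no molecular identifiers, so PCR copies are counted.

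The genes and lists were chosen with earlier results of these data known. Counts of cells with at least 50000 counts and 1000 genes were summed per group. Fractional counts were rounded for intervals, thinning (seed 1) and scaling. Intervals are exact Poisson, exact conditional and Clopper-Pearson limits at the 95% level. For a share of 0 the upper limit is 3 counts over the total. Values are named for members of at least 50 CPM or called, counts for those under 5 CPM, and ranges for the rest. From the other lists the called genes and at most 4 with the largest ratios at 20 CPM or more could be named, and outside them the 10 genes most like the summed level. mRNA length is that of the GENCODE M21 transcript with the longest coding sequence, by symbol. Of the 38 members, 31 had a promoter window. The alternatives were R 4.3.3 scaling factors of DESeq2 1.42.0 and of edgeR 4.0.16 (TMM), pseudocounts of 0.1 and 5 CPM, other minima, equal weights, thinning, stricter filters, and cells or letters left out. Other steps ran in Python 3.11.15 (scipy 1.17.1, pandas 2.3.3, numpy 2.4.6 and matplotlib 3.10.9). The sums and ratios were tested on simulated cells. Cells came 1 to a library, so no doublet caller was run, and the 19 control and 11 RO-3306 libraries below the minimum entered no comparison.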

Additional observations from a re-analysis of the deposited data

How the results depend on the processing

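No paired analysis was possible because title numbers name cells only and no result comes from a test. The members' median, calls, signs by letter, summed ratio and single ratios were recomputed under 17 alternatives, the per-cell levels under fewer, and shares of cells, complexes, correlations and promoter counts under none. Of 646 member ratios, 36 had the other sign, in 13 members, and 25 members kept 1 sign throughout, 19 lower and 6 higher (Rfc4, Rfc5, Pold3, Clspn, Dtymk and Chaf1b).

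The members' median of -0.38, beside -0.22 for all genes, moved with the setting. It became -0.20 with TMM scaling (all genes -0.06) and -0.33 with cells weighted equally (all genes -0.18). With at least 500000 counts and 2500 genes per cell it was -0.46 (all genes -0.22). Relative to genes of like mRNA length it was -0.28, where the median of all genes is 0. Without the cell of each group highest in members it was -0.48 (all genes -0.22). Without control D10, RO-3306 C11 and RO-3306 B3, an alternative chosen after seeing the data, it was -0.44 (all genes -0.22). With letters left out in turn it ran from -0.54 (without C, all genes -0.21) to -0.22 (without B, all genes -0.17). The summed log2 ratio of -0.20 became -0.035 with TMM, -0.18 with DESeq2 size factors, -0.40 with equal weights, -0.22 with thinned cells, -0.20 with the stricter cell filter and -0.27 without the highest cells, and it ran from -0.32 to -0.00496 with letters left out, the latter without B.

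The 2 members called lower became 1 with TMM, with equal weights, with a minimum of 20 CPM and relative to like length. They became 4 with DESeq2 and with the stricter filter, and 1 to 7 with letters left out. Of all genes, 6.43% were called lower in the main setting and 4.83% to 7.63% in these alternatives with all letters. With letters left out that share rose to between 8.08% and 11.5%. The 0 called higher became 1 with TMM, with DESeq2, relative to like length and without the 3 named cells. They became 2 with equal weights and with thinned cells, and 0 to 4 with letters left out. Of all genes, 7.23% were called higher in the main setting and 7.22% to 8.89% in these alternatives with all letters. With letters left out that share was 9.11% to 11.3%. The 9 members below 0 in every letter became 9 to 17 with letters left out, 17 without C, where fewer letters had to share the sign. The share of all genes rose as well, from 10.3% to between 13.6% (without B) and 18.3% (without C). The median summed level per cell kept its order, with 5610 to 5746 CPM in control and 3833 to 4391 CPM in RO-3306 as letters were left out. The cause of the other changes was not tested. In members under 50 CPM, 1 cell held from 25.6% (Timeless) to 96.7% (Pola1) of the control counts. In RO-3306 it held from 19.4% (Pole2) to 70.2% (Ung). Some of them were still found in many cells, such as Pold1 in 18 of 29 control and 32 of 37 RO-3306 cells. The part of depth in these low genes was not tested.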
